A study of Mus musculus with 6 samples.

Results

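Genes of the spliceosome core and of the SR proteins were read in bone marrow of female mice from a pair of F1 crosses. Members were taken by gene symbol, as every gene with a probe set of exactly 1 symbol that starts with Srsf and a digit, with Snrp, or with Sf3a or Sf3b and a digit. This gave 28 of 18193 genes, of which 10 are Srsf genes, 9 Snrp genes and 9 Sf3a or Sf3b genes. They are read by 81 of 45037 probe sets, the sets of short probes that each report 1 expression value, and 21 of the 28 genes have more than 1. One cross was (AKR/J x FVB/NJ)F1, called AKR F1 here, with 3 arrays. It was set against (DBA/2J x FVB/NJ)F1, called DBA F1 here, also with 3 arrays. Both crosses carry 1 FVB/NJ parental genome, the animals were adult and no treatment is named beyond anesthesia before tissue collection. The question was which genes differ in basal level between these genotypes. The labels do not say that the arrays came from separate animals, so each p-value reflects the spread among these 6 samples alone, which may be technical.

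The spliceosome cuts introns out of pre-mRNA and joins the exons. It is built from small nuclear ribonucleoproteins (snRNPs), each a small RNA bound to proteins, and Snrp genes encode either the Sm proteins that form the shared ring on these RNAs or proteins of a single particle. The SF3a and SF3b complexes belong to the U2 snRNP, which recognises the branch point of the intron. SR proteins, encoded by the Srsf genes, bind exons through an RNA recognition motif and recruit the machinery through a domain rich in arginine and serine. Mutations of SF3B1 and SRSF2 in humans are known from blood cell cancers, and red cell precursors depend on regulated splicing as they mature.

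All values are log2 expression of the deposited table, and every difference is the AKR F1 mean minus the DBA F1 mean. The 6 arrays had medians from 5.14 to 5.19. The balance of 3' over 5' signal was averaged over actin, Gapdh and 4 spiked poly-A controls. On the log2 scale it was 1.66, 2.22 and 2.08 in AKR F1 and 1.44, 1.54 and 1.45 in DBA F1, so the groups did not overlap. Gapdh and each spiked control also separated the groups. Actin did not, at 0.39, 1.02 and 0.95 in AKR F1 against 0.37, 0.48 and 0.51 in DBA F1. Spiked controls are not marrow RNA, so this balance mixes RNA quality with labelling. The marker counts below stand beside 15.2% of all genes called in limma at an adjusted p under 0.05, 9.2% higher and 6.04% lower. Of genes above the median level of a probe set 22.3% were called, 13.4% higher and 8.97% lower. Among cell type markers, 2 of 6 erythroid genes were higher in AKR F1. Their mean level was 10.90 to 10.97, against 10.61 to 10.78 in DBA F1. Neutrophil markers, which define much of the marrow, averaged 13.64 to 13.73 in AKR F1 and 13.37 to 13.65 in DBA F1, with 1 of 8 higher. T cell markers averaged 6.99 to 7.17 in AKR F1 and 6.76 to 6.81 in DBA F1, with 2 of 5 higher. Skeletal muscle markers averaged 6.76 to 8.10 in AKR F1 and 8.87 to 11.61 in DBA F1, with 6 of 8 lower. Of the other lists, monocyte and macrophage markers had 2 of 6 higher and 1 lower, B cell markers 1 of 5 higher and 2 lower, and megakaryocyte markers 0 of 3 called (1 at an unadjusted p under 0.05) in limma. Of 7 proliferation genes 0 passed limma's test (1 at an unadjusted p under 0.05), and their mean was 11.62 to 11.76 in AKR F1 and 11.71 to 11.83 in DBA F1. The table holds no 0, and the part of cell makeup in the differences below was not tested.

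The splicing genes did not move together. In limma's test over all genes, each read from its brightest probe set and called at an adjusted p under 0.05, 3 of the 28 passed upward in AKR F1 and 5 downward, and the other 20 were not called. The background was 15.2% of all genes called in either direction, 9.2% higher and 6.04% lower. Brighter genes were called more often: of the 11549 that exceeded the median level of a probe set, as 26 of the 28 members do, 22.3% were called, 13.4% higher and 8.97% lower. Of the 1064 at least as bright as the median member 21% were called, 11.7% higher and 9.21% lower. The median difference of the members was -0.04, against 0.06 over all genes. It was 0.07 when probe sets that can bind several genes were replaced where another kind existed. The 3 arrays of 1 group lay wholly above those of the other in 17 of the 28 genes, 7 with AKR F1 above and 10 with AKR F1 below, against 36.7% of all genes (23% above and 13.7% below) and 47.3% of those above the median level. In bulk marrow, fewer cells of a type and less RNA per cell cannot be told apart. All 8 called differences kept their sign without any 1 array, but the number called depended on each. It was 2, 1 and 2 when AKR F1 replicates 1, 2 and 3 were dropped in turn, against 7.67%, 3.77% and 4.36% of all genes. It was 10, 3 and 5 when DBA F1 replicates 1, 2 and 3 were dropped, against 17.9%, 8.71% and 11.8%. With the 3' to 5' balance as a covariate 0 of the 28 passed limma's test (6 at an unadjusted p under 0.05), and 3 of all genes did, or 0.0165%. There the 8 kept their sign, and standard errors of members were a median 1.85 times as large.

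**Figure D1:**
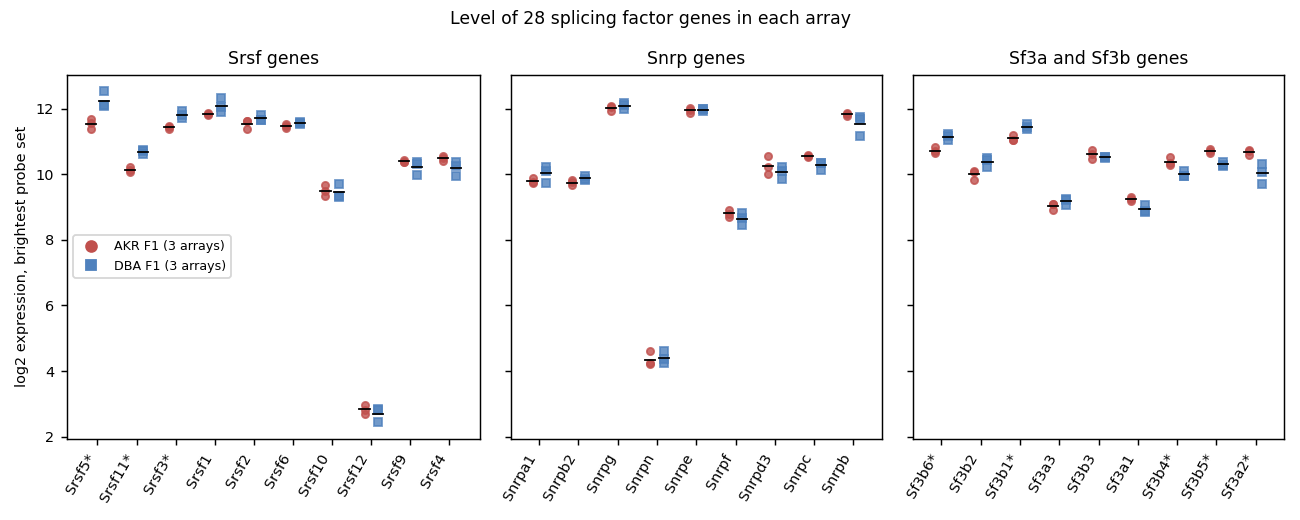
Log2 expression of the brightest probe set of each gene (vertical axis) in the 3 AKR F1 arrays (red circles) and 3 DBA F1 arrays (blue squares), with group means as bars and genes ordered by their difference within each family. Asterisks mark the 8 genes past the test, and Srsf12 and Snrpn lie far below the others.

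Among SR protein genes 3 of 10 were called lower in AKR F1, 0 higher and 7 did not pass (4 in all at an unadjusted p under 0.05 in limma, of which 1 was higher). Of all genes 15.2% were called, and of those above the median level 22.3%, so a count this small is given as values. The family median was -0.13. Srsf11, a large and divergent SR protein gene on chromosome 3, was at 10.13, 10.08 and 10.21 in AKR F1, against 10.73, 10.72 and 10.61 in DBA F1. Its groups lay well apart, 1.46-fold lower in AKR F1 (difference -0.54, SE 0.09, adjusted p = 0.0087 in limma). Whichever single array was dropped it was still called, unlike the other 7 called members. Its 4 probe sets differed by -0.09 to -1.19, and 2 of them passed the probe set test. Srsf5, on chromosome 12, is a classical SR protein gene whose transcript is known to respond to growth and insulin signals. It was at 11.57, 11.39 and 11.68 in AKR F1, against 12.07, 12.10 and 12.54 in DBA F1. The groups did not overlap, DBA F1 replicate 3 was highest, and the level was 1.61-fold lower in AKR F1 (difference -0.69, SE 0.14, adjusted p = 0.017 in limma). Without AKR F1 replicates 1 or 2 its adjusted p was 0.053 and 0.077 in limma.

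Srsf3, on chromosome 17, encodes one of the smallest SR proteins, which also takes part in mRNA export. It was at 11.45, 11.37 and 11.47 in AKR F1, against 11.71, 11.93 and 11.81 in DBA F1. The groups did not overlap, and the level was 1.31-fold lower (log2 -0.38, SE 0.09, adjusted p = 0.028 in limma). All 6 of its probe sets pointed down, by -0.25 to -0.74, and 3 of them passed the probe set test. The call was lost without any 1 AKR F1 array or without DBA F1 replicate 2, with adjusted p from 0.073 to 0.11 in limma.

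The other SR protein genes gave smaller values. Srsf1, the founding SR protein gene of the family, was at 11.81, 11.87 and 11.82 in AKR F1, against 11.91, 12.31 and 12.06 in DBA F1. Its groups did not overlap, yet the difference of -0.26 (95% interval -0.52 to 0.00) did not pass (adjusted p = 0.16 in limma). Srsf2 and Srsf6, further classical SR protein genes, differed by -0.16 and -0.10, with intervals from -0.39 to 0.08 and from -0.29 to 0.09. Srsf4, on chromosome 4, went the other way at 10.42, 10.49 and 10.55 in AKR F1, against 10.38, 10.26 and 9.95 in DBA F1. Its difference of 0.29 had an adjusted p of 0.15 in limma. Srsf9 and Srsf10 differed by 0.17 and 0.05. Srsf12, at 2.70 to 2.97 in AKR F1 and 2.44 to 2.85 in DBA F1, lay below the lower quartile of every array, so its value says little about a level.

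Promoters of the 3 called SR protein genes and of Sf3a2, the called member with the largest rise, are shown so that their letters can be set beside the opposite directions of their levels. Each is the stretch of 250 bases before the gene start in RefSeq, build GRCm38.p6, on the coding strand of the reference strain, not of the crossed strains. Srsf11 is at chr3:158036607-158036856, minus strand. Srsf5 is at chr12:80945249-80945498, plus strand. Srsf3 is at chr17:29032410-29032659, plus strand. Sf3a2 is at chr10:80798485-80798734, plus strand. Capitals mark matches on either strand to 5 motifs: the CCAAT box, the GC box GGGCGG, the E-box CACGTG, the core CCGGAAG of ETS factors, and the TATA box TATAAA.
Srsf11: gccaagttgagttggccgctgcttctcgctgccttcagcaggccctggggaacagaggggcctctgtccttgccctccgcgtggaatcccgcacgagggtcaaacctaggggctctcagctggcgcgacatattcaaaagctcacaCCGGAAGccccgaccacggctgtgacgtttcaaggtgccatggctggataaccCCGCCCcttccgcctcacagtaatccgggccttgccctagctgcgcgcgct
Srsf5: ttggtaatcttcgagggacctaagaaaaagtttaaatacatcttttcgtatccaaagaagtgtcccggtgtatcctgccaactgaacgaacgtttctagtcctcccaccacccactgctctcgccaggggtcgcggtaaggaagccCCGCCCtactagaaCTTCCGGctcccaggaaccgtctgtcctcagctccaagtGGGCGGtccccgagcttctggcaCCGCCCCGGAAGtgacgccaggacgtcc
Srsf3: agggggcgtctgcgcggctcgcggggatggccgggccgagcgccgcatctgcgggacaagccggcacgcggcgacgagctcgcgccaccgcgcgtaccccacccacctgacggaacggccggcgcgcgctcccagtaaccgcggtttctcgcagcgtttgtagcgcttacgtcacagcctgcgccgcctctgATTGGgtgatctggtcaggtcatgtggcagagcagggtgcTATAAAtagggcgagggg
Sf3a2: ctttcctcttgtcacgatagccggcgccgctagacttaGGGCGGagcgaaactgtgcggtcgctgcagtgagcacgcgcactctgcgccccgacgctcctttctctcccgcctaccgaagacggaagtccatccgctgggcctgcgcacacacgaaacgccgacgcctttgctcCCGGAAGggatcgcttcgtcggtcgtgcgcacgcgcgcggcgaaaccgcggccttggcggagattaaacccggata
Srsf11 and Srsf5, both lower in AKR F1, and Sf3a2, higher, all hold GGGCGG and also CCGGAAG, while Srsf3 holds CCAAT and also TATAAA. In the run of capitals near the end of Srsf5 a GGGCGG match on the other strand overlaps a CCGGAAG match. Of the 25 members with a promoter in the table, 12 held CCGGAAG against 6.91% of 32851 promoters, 16 held GGGCGG against 32.7%, 9 held CCAAT against 33.8%, 3 held TATAAA against 12.4% and 0 held CACGTG against 6.02%. The median GC content was 60.8% in the members and 52.4% in all promoters. The 32851 promoters outnumber the 18193 genes read here and were not matched to the members in expression level or GC content. Whether these shares are particular to the members was therefore not tested. The motif matches are letters in a window and no measurement of binding.

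Of 9 Snrp genes 0 passed in limma, against 15.2% of all genes and 22.3% of those above the median level. With 9 genes this count says little about the family. Only 1 had an unadjusted p under 0.05 in limma, and the median was -0.03. That gene was Snrpc, which encodes the U1 protein that helps U1 bind the start of the intron. It was at 10.53, 10.54 and 10.58 in AKR F1, against 10.34, 10.34 and 10.13 in DBA F1, and its groups did not overlap. The difference of 0.28 (95% interval 0.07 to 0.49) had an adjusted p of 0.077 in limma, and of 0.049 after quantile normalization.

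None of the Sm ring genes among the members passed, and their intervals differed in width. Snrpd1 and Snrpd2, also genes of the ring, are not among the members, so the ring was not read whole. Snrpe was at 11.85, 11.97 and 12.01 in AKR F1, against 11.94, 12.00 and 11.98 in DBA F1, so the groups overlapped, and its 95% interval ran from -0.22 to 0.17. Snrpg was at 11.91, 12.04 and 12.07 in AKR F1, against 12.10, 12.18 and 12.00 in DBA F1, a difference of -0.08 with an interval from -0.30 to 0.13. Snrpb, the gene of the SmB proteins, was at 11.77, 11.85 and 11.85 in AKR F1, against 11.73, 11.68 and 11.16 in DBA F1. The difference of 0.30 had a wide interval from -0.04 to 0.64, and the groups did not overlap, with DBA F1 replicate 3 lowest. Snrpd3 differed by 0.20 (95% interval -0.15 to 0.55) and Snrpf by 0.16 (-0.10 to 0.42), and their groups overlapped.

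The proteins that bind the U2 RNA next to the ring also gave no call. Snrpa1, which encodes a protein of the U2 particle, was at 9.72, 9.88 and 9.76 in AKR F1, against 9.75, 10.21 and 10.11 in DBA F1. Its difference was -0.24 (adjusted p = 0.25 in limma), and among the fits without 1 array it passed in that without DBA F1 replicate 1 (adjusted p = 0.039 in limma). Snrpb2, which encodes its partner in that particle, differed by -0.13. Snrpn, the imprinted Sm gene expressed mainly in brain and heart, was at 4.22 to 4.60 in AKR F1 and 4.24 to 4.61 in DBA F1 at its single probe set, below the median of every array.

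**Figure D2:**
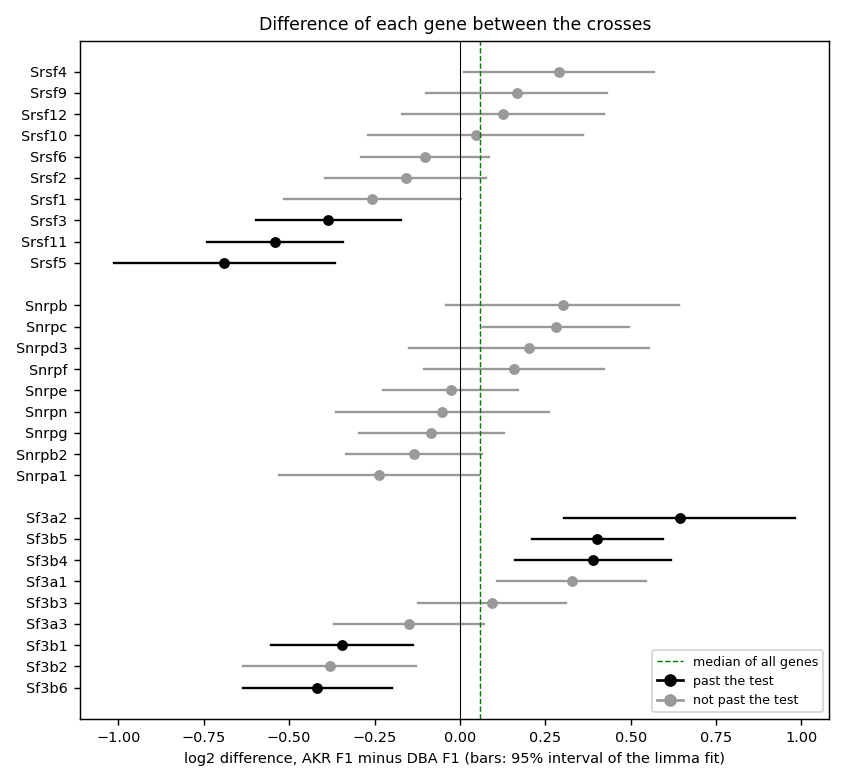
Log2 difference of each of the 28 genes, AKR F1 minus DBA F1 (horizontal axis), with the 95% interval of the limma fit, ordered by size within the Srsf (top), Snrp (middle) and Sf3 (bottom) genes. Black points passed the test, and the Snrp block has none, while the Sf3 block has them on both sides of 0.

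Genes of the SF3a and SF3b complexes split in both directions. Of 9 genes 3 were called upward in AKR F1, 2 downward and 4 not at all, while their products sit in 1 particle. Over all genes 9.2% were called higher and 6.04% lower, and above the median level 13.4% and 8.97%. The median was 0.09. Sf3a2, the SF3a subunit gene on chromosome 10, was at 10.73, 10.70 and 10.60 in AKR F1, against 10.32, 10.07 and 9.70 in DBA F1. The AKR F1 arrays were tight and the DBA F1 arrays spread out, and the level was 1.56-fold higher (difference 0.64, SE 0.15, adjusted p = 0.025 in limma). Its call was lost without any 1 AKR F1 array or DBA F1 replicate 2 (adjusted p from 0.061 to 0.091 in limma). Sf3b5, the gene of a small SF3b subunit, also on chromosome 10, was at 10.66, 10.70 and 10.76 in AKR F1, against 10.26, 10.36 and 10.29 in DBA F1. Both groups were tight, and the difference was 0.40 (SE 0.08, adjusted p = 0.018 in limma). Its call was lost without AKR F1 replicates 2 or 3 (adjusted p = 0.070 and 0.081 in limma). Another Sf3b5 probe set, 1437972_s_at, averaged 10.36 in AKR F1 and 10.13 in DBA F1. It differed by 0.22 (adjusted p = 0.21 in limma's probe set test), and the dim 1439370_x_at by -0.12.

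Sf3b4, whose product contacts the pre-mRNA near the branch point, was at 10.54, 10.29 and 10.34 in AKR F1, against 10.10, 9.94 and 9.96 in DBA F1. It lies on chromosome 3, and the difference was 0.39 (SE 0.10, adjusted p = 0.035 in limma), with a second probe set at 0.31. With 1 array dropped it was called only without DBA F1 replicate 1, and the adjusted p in the other 5 fits was 0.070 to 0.11 in limma.

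The falls in this particle were in Sf3b6 and Sf3b1, whose products meet at the branch point. Sf3b6, on chromosome 12, encodes the subunit that lies by the branch adenosine. It was at 10.70, 10.64 and 10.83 in AKR F1, against 11.04, 11.16 and 11.23 in DBA F1. No arrays overlapped, and the level was 1.34-fold lower (log2 -0.42, SE 0.10, adjusted p = 0.024 in limma). All 4 of its probe sets pointed down, by -0.15 to -0.42, and only the brightest passed. Sf3b1, on chromosome 1, encodes the large scaffold subunit that holds the branch helix. It was at 11.05, 11.05 and 11.20 in AKR F1, against 11.37, 11.52 and 11.45 in DBA F1, so the groups were apart, by 1.27-fold (log2 -0.35, SE 0.09, adjusted p = 0.038 in limma). Its 4 probe sets lay between -0.15 and -0.94, and 3 passed. Of the fits with 1 array dropped, both genes were called only in that without DBA F1 replicate 1, and the adjusted p reached 0.099 for Sf3b6 and 0.13 for Sf3b1 in limma.

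Sf3b2 and Sf3a1 fell just outside the threshold. Sf3b2, which encodes another branch site contact of SF3b, differed by -0.38 (adjusted p = 0.051 in limma) and Sf3a1, an SF3a subunit gene, by 0.33 (adjusted p = 0.052). Sf3b2 was at 9.83, 10.09 and 10.06 in AKR F1, against 10.22, 10.48 and 10.42 in DBA F1. Sf3a1 was at 9.19, 9.32 and 9.25 in AKR F1, against 8.88, 9.06 and 8.84 in DBA F1. Neither pair of groups overlapped at these brightest probe sets. Of the 4 probe sets of Sf3a1 the others differed by -0.06, 0.10 and -0.01, and their groups overlapped. With all 4 averaged, the Sf3a1 difference was 0.09 (adjusted p = 0.44 in limma). Sf3a3 and Sf3b3 differed by -0.15 and 0.09 at their brightest probe sets.

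The 81 probe sets gave a fuller view. At this level 17 passed limma's test over all probe sets, 4 higher and 13 lower in AKR F1, against a background of 12.3% of all probe sets, 5.57% higher and 6.73% lower. The groups did not overlap in 45 of the 81, against 33% of all probe sets. The 17 called belong to 11 genes, and in none of these genes did probe sets pass in both directions. Of the 21 genes with several probe sets, 9 had all of them on 1 side of 0. Sf3a3, Srsf1 and Srsf10 had a passing probe set although their brightest one did not pass. When AKR F1 replicates 1, 2 and 3 were dropped in turn the number was 10, 5 and 3, against 8.7%, 4.19% and 3.74% of all probe sets. When DBA F1 replicates 1, 2 and 3 were dropped it was 20, 7 and 10, against 12.4%, 6.55% and 8.96%. With the 3' to 5' balance as a covariate 0 passed in limma (17 at an unadjusted p under 0.05), against 0.118%.

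**Figure D3:**
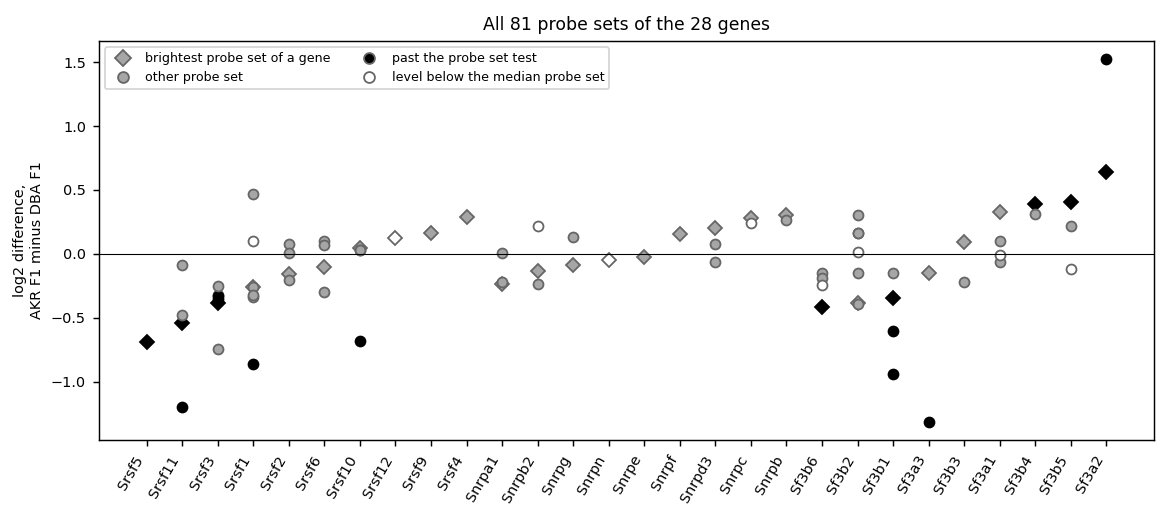
Log2 difference, AKR F1 minus DBA F1 (vertical axis), of all 81 probe sets by gene. Diamonds are the brightest probe set of a gene, black points passed the probe set test and white points lie below the median level, and Sf3a2 and Sf3a3 hold the extremes at 1.53 and -1.32.

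Probe sets of 1 gene can read different transcript ends or forms, and whether they differ from each other was tested directly. For every gene with several probe sets, the value of each other probe set minus that of the brightest was compared between the crosses within arrays. Of 53 such pairs in the members 6 passed, each from another gene, 3 upward and 3 downward, against 10.1% of all 16752 pairs (4.1% upward and 6.05% downward). That share is near the background, so the pairs are given as values. Sf3a3 read by 1432488_a_at was at 7.32, 6.51 and 6.97 in AKR F1, against 8.18, 8.23 and 8.32 in DBA F1. Its brightest probe set, 1423811_at, was at 8.92, 9.09 and 9.08 in AKR F1, against 9.06, 9.25 and 9.23 in DBA F1. The difference was -1.32 at the first and -0.15 at the second, and they were apart by -1.17 (SE 0.22, adjusted p = 0.013 in limma).

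Sf3a2 rose at both of its probe sets but by unequal amounts. The dimmer 1450576_a_at was at 7.39, 6.86 and 6.87 in AKR F1, against 5.51, 5.81 and 5.22 in DBA F1. The difference of 1.53 there exceeded that of the brightest by 0.88 (SE 0.18, adjusted p = 0.019 in limma). In Sf3b2 the sign itself turned. The probe set 1433461_at was at 10.05, 10.33 and 10.28 in AKR F1, against 9.93, 9.96 and 9.85 in DBA F1, a difference of 0.305, while 1438637_x_at, the brightest, differed by -0.38. The gap of 0.69 passed (SE 0.13, adjusted p = 0.013 in limma), and neither probe set passed alone, so no direction is given for Sf3b2.

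Srsf1 showed the same kind of split. Its probe set 1430982_at was at 9.66, 9.48 and 9.50 in AKR F1, against 8.79, 9.16 and 9.29 in DBA F1. That difference of 0.47 stood against -0.26 at the brightest, a gap of 0.72 (SE 0.15, adjusted p = 0.018 in limma), while 1452430_s_at differed by -0.86. In Srsf10, a splicing repressor active when dephosphorylated, 1418527_a_at was at 8.73, 8.19 and 8.59 in AKR F1, against 9.14, 9.15 and 9.26 in DBA F1. The gap to the brightest was -0.72 (adjusted p = 0.040 in limma). The sixth pair, in Sf3b5, sets a probe set at about 3, below the lower quartile of every array, against the brightest.

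AKR F1 replicates 1 and 2, with the lowest and highest 3' to 5' balance of that group (1.66 and 2.22), were its extremes in all 6 pairs. Replicate 1 lay nearest to the DBA F1 mean, and replicate 2 farthest, in 4 of the 6 pairs, those of Sf3b2, Sf3a3, Srsf10 and Sf3b5. In the other 2, those of Srsf1 and Sf3a2, replicate 1 lay farthest and replicate 2 nearest. In Sf3b2 the AKR F1 arrays spanned only 0.2164 to 0.2356, so their order there says little. The order was not counted over pairs outside these 6. Replicate 3, with a balance of 2.08, was nearest in 0 pairs and farthest in 0. With that balance as a covariate 0 of the 53 pairs passed in limma (4 at an unadjusted p under 0.05), against 0.293% of all pairs. The part of RNA quality or labelling in these differences was not tested further. Dropping AKR F1 replicates 1, 2 and 3 in turn left 8, 3 and 0 (10 at an unadjusted p under 0.05 in the last), against 11.3%, 3.46% and 2.79%. Dropping DBA F1 replicates 1, 2 and 3 left 6, 2 and 4, against 8.89%, 4.29% and 6.04%. Probe sequences and strain variants under them were not analysed here.

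**Figure D4:**
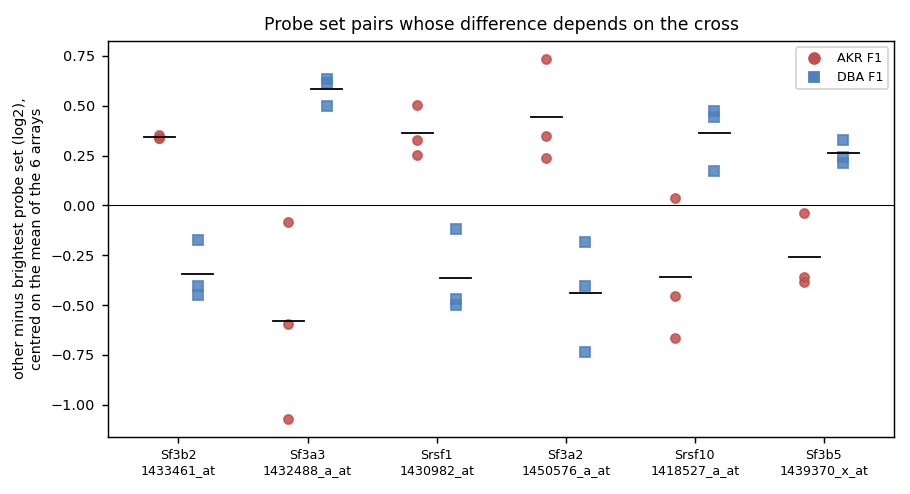
Log2 value of another probe set minus that of the brightest probe set of the same gene (vertical axis, centred on the mean of the 6 arrays) for the 6 pairs past the test, with AKR F1 arrays as red circles, DBA F1 arrays as blue squares and group means as bars. The groups are apart in every pair, and AKR F1 is above DBA F1 in Sf3b2, Srsf1 and Sf3a2 and below it in Sf3a3, Srsf10 and Sf3b5.

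Other genes of the splicing pathway and of related families, outside the symbol rule, also moved both ways. Over 6 lists 105 genes were measured, with 8 called upward in AKR F1, 13 downward and 84 not called, and the median difference was -0.01. The share called was 20%, against 15.2% of all genes and 22.3% of those above the median level. Without AKR F1 replicates 1, 2 or 3 the calls numbered 11, 7 and 8, against 7.67%, 3.77% and 4.36% of all genes, and without DBA F1 replicate 2 they numbered 14, against 8.71%. Among SR related proteins and the kinases of SR proteins 2 of 19 were higher and 4 lower, with a median of -0.22. Pnn, which encodes the SR related protein pinin, was at 8.41, 8.43 and 8.55 in AKR F1, against 9.15, 9.29 and 9.22 in DBA F1. The groups lay far apart, by -0.75 with an SE of 0.09 and an adjusted p of 0.0035 in limma. Acin1, the gene of acinus in the exon junction and ASAP complexes, was at 9.16, 9.46 and 9.34 in AKR F1, against 8.73, 8.69 and 8.40 in DBA F1, a rise of 0.71. Rsrc2 and Tra2a, a splicing activator related to SR proteins, fell by 0.52 and 0.56 on the log2 scale. The other called genes of this list, named after their values were seen, were the SR protein kinase gene Srpk1 with 0.41 and Rsrc1 with -0.47.

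Factors that work beside SF3a and SF3b at the branch point and 3' splice site had 1 of 16 genes higher and 4 lower (median 0.01). The shares were 9.2% higher and 6.04% lower over all genes, and 13.4% and 8.97% above the median level. U2af1, the gene of the U2AF subunit that reads the AG at the end of the intron, was at 9.68, 9.70 and 9.91 in AKR F1, against 10.27, 10.38 and 10.50 in DBA F1. It was lower in every AKR F1 array, by -0.62 on average (SE 0.10, adjusted p = 0.0096 in limma). Htatsf1, Smndc1 and the helicase gene Dhx15 fell by 0.48, 0.45 and 0.37. The call in the other direction was Puf60, which encodes a U2AF related splicing factor and was named after its values were seen. It was at 10.15, 10.16 and 10.16 in AKR F1, against 9.83, 9.74 and 9.39 in DBA F1, a rise of 0.50 (SE 0.12, adjusted p = 0.028 in limma). Of 23 snRNP protein genes with other names 3 were higher and 2 lower (median -0.01), against the same shares of all genes. Snrnp70, the gene of a U1 protein contacted by SR proteins, was at 9.36, 9.29 and 9.37 in AKR F1, against 8.59, 8.81 and 8.68 in DBA F1. All AKR F1 arrays were above all DBA F1 arrays, with a rise of 0.64 (SE 0.09, adjusted p = 0.0060 in limma). Snrnp25 of the minor spliceosome rose by 0.42, while Rnpc3, of the same particle, fell by 0.54 and Usp39 of the tri-snRNP by 0.72. The third higher gene of that list, Cd2bp2 of the U5 snRNP, differed by 0.41 and was also named after its values were seen.

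The 3 remaining lists held few calls, against 15.2% of all genes, and the counts are too small to set these lists apart. In the PRP19 related complex and the late splicing factors 2 of 22 were lower and 0 higher in limma, where 2 higher and 5 lower had an unadjusted p under 0.05. These 2 were Crnkl1 (difference -0.83, adjusted p = 0.0053 in limma) and Cwc22 (-0.77), and Prpf19 and Xab2 differed by -0.37 and 0.44 without passing. The 9 LSm genes include proteins of the U6 snRNP, but not all act in splicing: Lsm10 and Lsm11 belong to the U7 snRNP of histone RNA processing. Of the 9 genes 22.2% were called. Lsm10 and Lsm2 were higher by 0.44 and 0.58, and Lsm4 and Lsm8 differed by 0.32 and -0.23 without passing. Of 16 genes of snRNP assembly and export only Phax, the export adaptor of spliceosomal RNAs, passed, with -0.49. In the same list Prmt5, Strap and Gemin7 differed by -0.29, -0.32 and 0.32, none of which passed. Pnn, Acin1, U2af1, Snrnp70, Rnpc3 and Crnkl1 were still called whichever single array was dropped. Every other call on the 6 lists was lost in at least 1 of the 6 fits without 1 array. Puf60, Cd2bp2, Dhx15, Lsm2 and Phax were called in only 2 of these fits, and Srpk1 and Rsrc1 in 1.

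**Figure D5:**
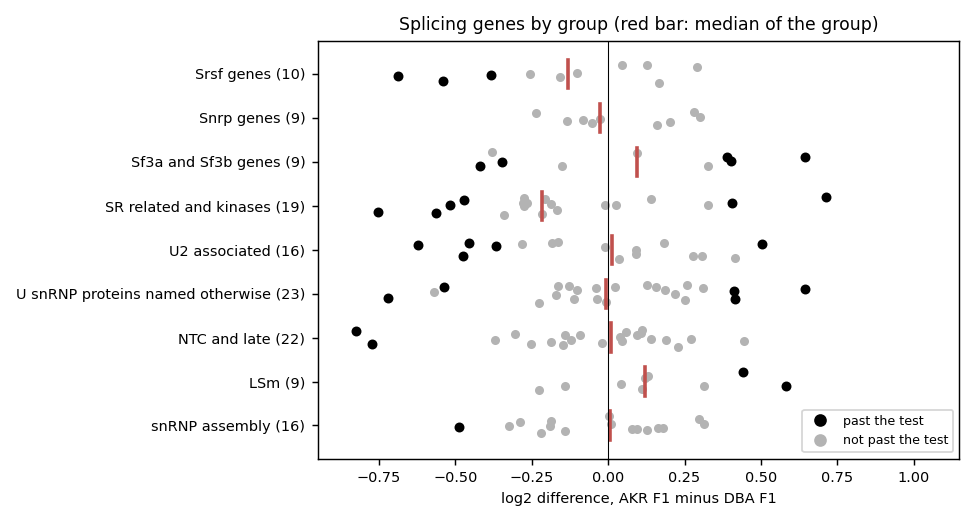
Log2 difference, AKR F1 minus DBA F1 (horizontal axis), of the 28 genes by family and of 105 other splicing and related genes by list, with the number of genes in brackets and the median as a red bar. Black points passed the test, and medians lie between -0.22 for SR related proteins and kinases and 0.12 for LSm genes.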

How the data were processed

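Total RNA from snap-frozen marrow was extracted with Trizol and hybridised after biotin labelling, as the labels' protocols state. Log2 values of 45101 probe sets were deposited in 1 table, whose arrays have near equal quartiles. RMA and MAS5 are both named in the submitters' processing notes, with no role or version. Which of them made the table, any batches and detection calls are not given in the sources used here. The 64 control probe sets were left out. The platform annotation gives 1 symbol to 34945 probe sets, several to 932 and none to 9160. Genes were matched by gene ID to RefSeq (GRCm38.p6) for chromosome and promoter. All 28 members matched a gene, and 25 had a promoter, which Sf3b4, Sf3b5 and Snrpb lacked.

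Groups come from sample titles. Limma 3.58.1 in R 4.3.3 was fitted over all genes (brightest probe set by its mean), all probe sets, and all pairs of probe sets within a gene, two-sided with Benjamini-Hochberg adjustment, a threshold of 0.05 and 4 residual degrees of freedom, and the steps were tested on simulated data. The 6 arrays limit the precision. The members, the lists and the rule for named genes were chosen with earlier results of these data known: all members, with full values for those past a test, near it or brightest, and up to 4 genes of each other list with the smallest p. Alternatives were quantile normalization, median centring, a filter on dim probe sets, a variance trend, array weights, a block for replicate number, dropping each array in turn, thresholds of 0.01 and 0.1, the 3' to 5' balance, and averaging all probe sets of a gene. Replacing brightest probe sets of suffix s or x, which can bind several genes, was added after seeing the data. It was done where another kind of probe set existed, as in 27 of the 28 members, Snrpe being the exception. The brightest probe set has such a suffix in 6 members: Sf3a2, Sf3b2, Snrpb, Snrpe, Snrpg and Srsf2.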

Additional observations from a re-analysis of the deposited data

How the results depend on the processing

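Counts of 8 member genes, 17 probe sets and 6 pairs stayed within 1.5 times under quantile normalization, median centring, the dim filter, the variance trend, array weights and the replicate block. With the 3' to 5' balance as a covariate they were 0, 0 and 0, where 6, 17 and 4 had an unadjusted p under 0.05 in limma; that fit spends 1 of 4 residual degrees of freedom on a measure that separates the groups. At a threshold of 0.01 they were 1, 3 and 0 (15 pairs at an unadjusted p under 0.05 in limma). Over all features 526 of 18193 genes, 1214 of 45037 probe sets and 370 of 16752 pairs passed at 0.01. At 0.1 the probe set count was 27, against 8489 of all probe sets. Leaving out 1 array gave 1 to 10 genes, 3 to 20 probe sets, 0 to 8 pairs and 7 to 27 genes of the other splicing lists, and a median difference of members from -0.0628 to 0.0105. That median was 0.0695 when probe sets of suffix s or x were replaced where another kind existed, a setting chosen after seeing the data. In that setting Sf3b2 changed sign to 0.305 (adjusted p = 0.077 in limma). With the mean of all probe sets Sf3b5 and Sf3b6 were lost (adjusted p = 0.17 and 0.065 in limma) and Sf3a3 was gained (-0.73, adjusted p = 0.0054). Same-numbered arrays correlated in their deviations at 0.01, -0.06 and 0.07, and differently numbered ones at -0.16 to 0.13. With 3 arrays per group and no batch named, these values cannot show whether the numbers pair the arrays. With the replicate block 7 members, 16 probe sets and 5 pairs passed, and over all features 2357 genes, 5321 probe sets and 1632 pairs did. In that limma fit Sf3b1 and Srsf3 were lost (adjusted p = 0.064 and 0.056) and Sf3b2 was gained (0.043). None of the 8 called genes changed sign under any of these alternatives.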

Other observations

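A further 9 probe sets carry several symbols of which 1 would meet the rule, and they were left out because they cannot be assigned to 1 gene. Their differences lay between -0.25 and 0.41, and 0 passed limma's probe set test. The highest, 1417274_at, was at 9.74, 9.86 and 9.83 in AKR F1, against 9.54, 9.51 and 9.16 in DBA F1, with an adjusted p of 0.062.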
